A study of Homo sapiens with 6 samples.

Results

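BMP2 and BMP6, 2 secreted ligands of the bone morphogenetic protein (BMP) family, and NOG (noggin), GREM1 (gremlin 1), CHRDL1 (chordin-like 1) and FST (follistatin), 4 secreted proteins that bind such ligands, were followed in colon fibroblasts given sonic hedgehog (SHH), the secreted ligand of the hedgehog pathway. These 6 genes were chosen by name with their difference between SHH-treated and untreated cells already known, and their probe sets were found by gene symbol in a deposited list in which the authors kept what reached a p of 0.05 or less in their own comparison. That gave 10 probe sets out of 54613 on the arrays, 3 for the ligands and 7 for the antagonists, and 6 genes out of 1641 that could be named. With SHH, signal was higher for BMP2 and FST and lower for BMP6, NOG, GREM1 and CHRDL1, so both the ligands and the antagonists had values on either side of 0. Of the 10 probe sets, that of NOG and 1 of GREM1 passed limma's adjusted threshold of 0.05, both lower, and those of BMP2, BMP6, CHRDL1 and FST did not (adjusted p = 0.0649 to 0.208).

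The cells were CCD-18Co, an established line of colon fibroblasts that the submitters also describe as myofibroblasts. The medium of all 6 cultures held 0.1% bovine serum albumin. In 3 biological replicates SHH was given at 1 ug/ml for 72 h, and the other 3 were untreated; the labels give no culture time for the untreated cells. A single line stands for the tissue, and the labels do not say whether replicates were grown on separate days.

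BMPs act as dimers on pairs of serine/threonine kinase receptors, whose SMAD transducers switch on targets such as the ID genes. Secreted antagonists bind the ligands outside the cell and keep them from the receptors. In the colon, mesenchymal cells around the crypt base are known sources of antagonists, and BMP signalling is known to be stronger towards the lumen, where it favours differentiation over stem cell renewal. Noggin and gremlin 1 bind BMP2 and related ligands directly, chordin-like 1 belongs to the chordin family, and follistatin is best known for binding activins and also binds several BMPs.

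By the RefSeq gene table of GRCh38.p14, BMP2 lies on chromosome 20 (6767686 to 6780246), BMP6 on chromosome 6 (7726099 to 7881728), NOG on chromosome 17 (56593699 to 56595611), GREM1 on chromosome 15 (32718004 to 32745106), CHRDL1 on chromosome X (110673856 to 110795817) and FST on chromosome 5 (53480629 to 53487134). Promoter sequences from RefSeq (GRCh38.p14) were at hand for 4 of the 6 genes, BMP6, GREM1, CHRDL1 and FST. They are shown because these genes differ in the sign of their difference with SHH: FST was higher and the other 3 were lower. Each line is the 250 bases before the annotated start site, 5′ to 3′ on the gene's strand. They lie at chr6:7725849-7726098 (plus strand), chr15:32717754-32718003 (plus strand, the first of 2 annotated GREM1 starts), chrX:110795818-110796067 (minus strand) and chr5:53480379-53480628 (plus strand). Capitals mark matches on either strand to 4 motifs. The first is GACCACCCA, the binding site of the GLI factors that carry hedgehog signals, searched with up to 1 mismatch. The second is the GC box, written GGGCGG when read on its own strand. The third is the CCAAT box and the last is a TATA box, which was searched as the exact letters TATAAA only.
BMP6: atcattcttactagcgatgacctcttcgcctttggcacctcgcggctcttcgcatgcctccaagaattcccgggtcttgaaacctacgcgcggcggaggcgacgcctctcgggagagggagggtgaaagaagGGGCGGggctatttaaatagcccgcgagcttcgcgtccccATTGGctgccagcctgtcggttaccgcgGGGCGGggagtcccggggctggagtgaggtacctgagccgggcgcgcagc
GREM1: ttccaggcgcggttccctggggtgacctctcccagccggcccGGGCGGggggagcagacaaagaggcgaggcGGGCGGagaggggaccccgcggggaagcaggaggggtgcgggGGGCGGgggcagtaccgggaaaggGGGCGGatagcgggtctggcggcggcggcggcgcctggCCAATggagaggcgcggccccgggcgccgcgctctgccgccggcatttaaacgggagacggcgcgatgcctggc
CHRDL1: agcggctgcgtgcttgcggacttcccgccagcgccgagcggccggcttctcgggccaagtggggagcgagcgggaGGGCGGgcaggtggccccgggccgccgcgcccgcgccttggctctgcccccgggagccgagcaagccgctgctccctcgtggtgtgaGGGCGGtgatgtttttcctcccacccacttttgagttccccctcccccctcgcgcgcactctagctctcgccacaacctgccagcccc
FST: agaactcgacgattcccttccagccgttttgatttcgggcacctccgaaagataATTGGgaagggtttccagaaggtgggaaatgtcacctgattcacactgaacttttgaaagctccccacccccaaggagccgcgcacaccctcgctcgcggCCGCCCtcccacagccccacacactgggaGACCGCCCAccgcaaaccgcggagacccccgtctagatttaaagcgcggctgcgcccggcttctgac

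None of the 4 windows held GACCACCCA itself, which was found in 0.199% of 35116 RefSeq promoters of the same length. The FST window held 1 near match, GACCGCCCA, which differs by A5G counted from the 5′ end of the site and starts 67 bases before the start site. A match with at most 1 mismatch occurred in 5.81% of all such windows, and the near match in FST overlaps a GC box on the other strand. GC boxes were found in all 4 printed windows, with 4 in GREM1 and 2 each in BMP6, CHRDL1 and FST, against 42.6% of all windows with at least 1. The G and C content was 64.4% for BMP6, 76.8% for GREM1, 73.2% for CHRDL1 and 60% for FST. The median over all windows was 58%, and the motif shares were not adjusted for base content. The CCAAT box, present in 32.0% of all windows, was found in BMP6, GREM1 and FST at 78, 74 and 196 bases before the start. The TATA box, present in 10.7% of all windows, was found in none of the 4. The second GREM1 window held none of these motifs. The letters describe these windows only and show no binding.

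BMP2 was the ligand with higher signal under SHH. Its brighter probe set, 205289_at, read 1186, 1325 and 1329 on the untreated arrays and 2353, 2458 and 2252 on the SHH arrays. Every SHH array was above every untreated array, with group means of 1280.0 ± 81.7 and 2354 ± 103 (SD, n = 3 each). The log2 difference was 0.87 ± 0.11, or 1.83-fold, where the ± of log2 differences is limma's moderated SE and differences are on the log2(intensity + 16) scale. The second probe set, 205290_s_at, read 489, 431 and 415 untreated and 802, 815 and 857 with SHH. It gave the same log2 difference to 2 decimals, 0.87 ± 0.11, from means of 445 ± 38.6 and 825.0 ± 28.9 (SD, n = 3). Both probe sets report on the same gene and are not replicates of each other. In bulk RNA, a change in the number of producing cells and a change in RNA per cell cannot be told apart, here and in the values that follow.

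BMP6, a ligand of another BMP subfamily with a role in iron homeostasis, had lower signal with SHH. Its 1 named probe set, 206176_at, read 2556, 2442 and 2682 untreated and 1319.5, 1320.2 and 1416 with SHH. The highest SHH array thus lay far below the lowest untreated array. The means were 2560.15 ± 120.0 and 1352 ± 55.5 (SD, n = 3), a log2 difference of -0.91 ± 0.11, which is 1.88-fold lower. The gap between the nearest arrays of the groups was 0.78 on the log2 scale, against a widest spread within a group of 0.13.

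Noggin transcripts fell to 46.0% of the untreated mean signal. NOG (231798_at) read 469, 468 and 500.0 untreated and 225, 210.1 and 226 with SHH. The means were 479 ± 18.4 and 220.4 ± 8.94 (SD, n = 3), the log2 difference was -1.07 ± 0.10, or 2.09-fold lower, and the groups were apart by 1.00 on the log2 scale. The difference was within 1 SE of that of GREM1 218469_at. Their order turned with a pseudocount of 64 (-0.93 for NOG and -1.05 for GREM1) and with quantile normalization (-1.02 and -1.13). It also turned without untreated replicate 1 (-1.08 and -1.10), untreated replicate 3 (-1.035 and -1.038) or SHH replicate 2 (-1.03 and -1.06).

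GREM1, an antagonist known from crypt base mesenchyme, had lower signal with SHH on both of its probe sets. The dimmer one, 218469_at, read 9329, 10134 and 10121 untreated and 4621, 4752 and 4812 with SHH. It fell by 1.06 on the log2 scale (SE 0.10), with means of 9861 ± 461 and 4728 ± 97.7 (SD, n = 3). The brighter one, 218468_s_at, read 10877, 12363 and 12469 untreated and 5644, 6054 and 6466 with SHH. Its log2 difference was -0.97 ± 0.12, and its arrays spread more within the groups. On both probe sets the SHH arrays lay at 50.9% and 47.9% of the untreated mean, for the brighter and the dimmer one in turn, with no overlap.

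CHRDL1 had the smallest difference among the lower genes. Its probe set 209763_at read 879.8, 776 and 822 untreated and 576, 569 and 510.0 with SHH. The groups did not overlap, with means of 826 ± 52.2 and 552 ± 36.1 (SD, n = 3) and a log2 difference of -0.57 ± 0.11, or 1.48-fold lower.

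FST had higher signal with SHH, unlike the other antagonists among the 6 genes. Its brightest probe set, 204948_s_at, read 1940.0, 1654 and 1957 untreated and 2937, 3041 and 2959 with SHH. The means were 1850.5 ± 170.3 and 2979 ± 54.7 (SD, n = 3), a log2 difference of 0.69 ± 0.12, or 1.61-fold. The untreated arrays spread more here than the SHH arrays, 1 of them lying below the other 2, and all 3 were below every SHH array. Probe set 226847_at, which the authors' annotation marks as lying 3′ of the gene, read 1389, 1464 and 1508 untreated and 2089.6, 1988 and 2185 with SHH, a log2 difference of 0.52 ± 0.11. The dimmest, 207345_at, read 373, 339 and 326 untreated and 516, 529.9 and 489 with SHH, a difference of 0.55 ± 0.11. All 3 FST probe sets were higher with SHH, and their differences spanned 0.17 on the log2 scale.

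**Figure D1:**
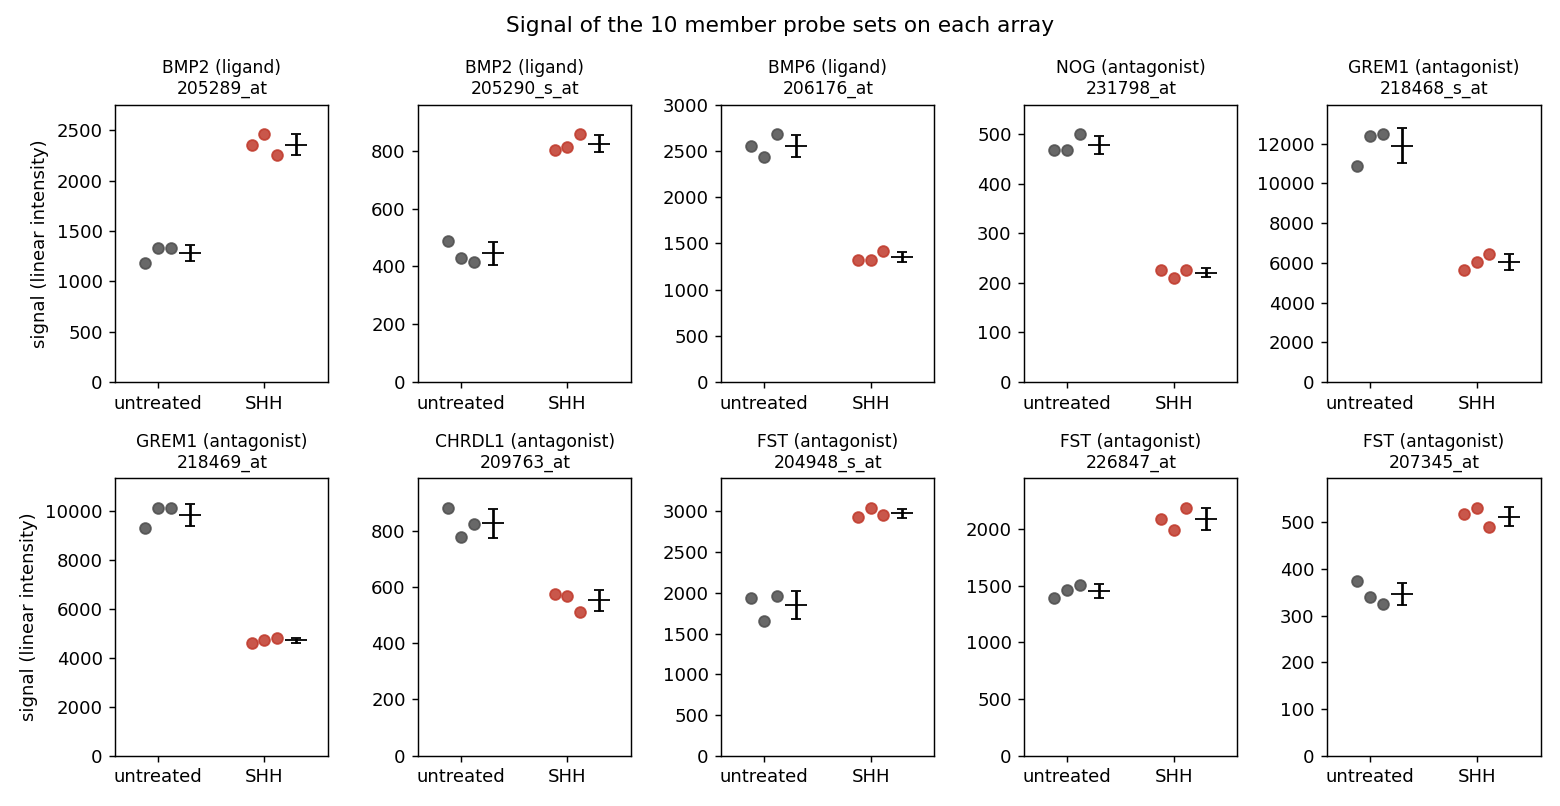
Signal (linear intensity, axis from 0) of the 10 probe sets of the 6 genes on the 3 untreated and 3 SHH arrays; each point is an array, and the bar beside the points is the mean with its SD. BMP2 and FST panels have all SHH points above the untreated points, and the BMP6, NOG, GREM1 and CHRDL1 panels have them below.

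Across the 10 probe sets the coefficient of variation within a group was between 1.84% and 9.20%. Each of the 10 was above the median signal of its array on all 6 arrays, the array medians being 94.4 to 111. Over all 54613 probe sets the size of the log2 difference had a median of 0.20. It was 0.51 over the 2145 named ones, which came from the same list as the members. For the 10 it ran from 0.52 to 1.07, with a median of 0.87. By sign, 5 were higher and 5 lower; the median of the signed differences was -0.03, against -0.05 for all probe sets. No array of one group overlapped with the other group in any of the 10 probe sets, 5 of them with SHH higher and 5 with SHH lower. Over all probe sets the groups did not overlap in 17.3%, 6.97% with SHH higher and 10.3% with SHH lower. Among the 2145 named probe sets the groups did not overlap in 1087 with SHH higher and in 967 with SHH lower. Since the genes were chosen on this same difference, nothing is read from these sizes and counts.

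By limma, with Benjamini-Hochberg adjustment over all 54613 probe sets and a threshold of 0.05, 2 of the 10 probe sets passed, NOG and GREM1 218469_at, both lower, where 0.123% of all probe sets passed in either direction, 0.0824% as higher and 0.0403% as lower. With limma's variance prior following intensity all 10 passed, against 1.86% of all probe sets (1.01% higher and 0.850% lower). Leaving out any 1 of the 6 arrays left none past the threshold, as did median centring and a pseudocount of 1, and with quantile normalization GREM1 218469_at alone passed. These counts describe the members and support no further statement, because the same contrast chose them. In the authors' deposited comparison 4.41% of all probe sets had p at or under 0.05, and the lowest q of any probe set was 0.392. There the members' p ran from 2.14e-04 (GREM1 218469_at) to 0.0229 (FST 207345_at), and their q from 0.417 to 0.999. Probe sets of these genes with a p above 0.05 carry no name here, so the value just outside the threshold cannot be given.

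**Figure D2:**
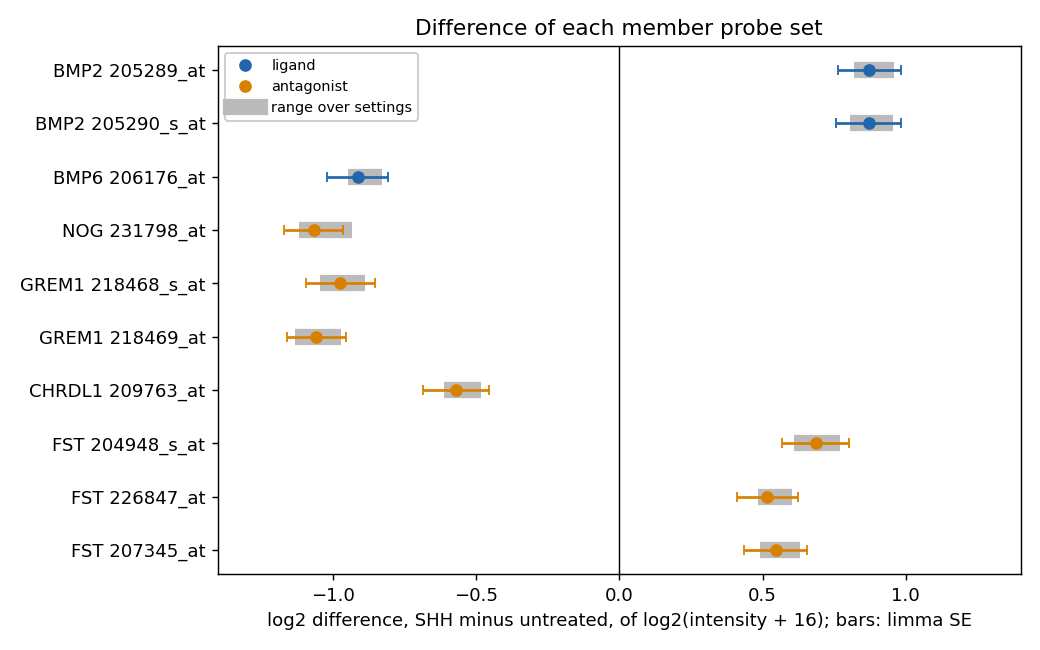
Log2 difference (SHH minus untreated, of log2 of intensity plus 16) of each of the 10 probe sets; points are the estimates with limma's SE as bars, blue for ligands and orange for antagonists, and grey bars span the estimates over the other processing settings. The ligands BMP2 and BMP6 lie on opposite sides of 0, and so do FST and the other antagonists.

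Ligands were set against antagonists within each array, since a factor that scales a whole array nearly cancels in the ratio of 2 of its genes; quantile normalization, which is not such a factor, can still move it. For each gene its brightest named probe set was used, and each log2 ratio was expressed relative to its mean over the untreated arrays, because signals of different probe sets have no common scale. The ratio of BMP2 to NOG was higher with SHH by 1.94 ± 0.08 on the log2 scale (SE of the difference from the arrays' own spread, n = 3 per group), which is 3.83-fold. On the single SHH arrays it stood at 1.91, 2.06 and 1.84, and on the untreated arrays at -0.08, 0.08 and -0.01. The ratio of BMP2 to GREM1 was higher by 1.84 ± 0.08, or 3.59-fold, and that to CHRDL1 by 1.44 ± 0.11, or 2.72-fold, with no overlap between groups for either. The ratio of BMP2 to FST differed by 0.19 ± 0.12, and its arrays overlapped. Without untreated replicate 1 that difference was 0.0964, and without untreated replicate 2 it was 0.29. Both genes had higher signal with SHH. The FST probe set used, 204948_s_at, had the largest log2 difference of that gene's 3 (0.69, against 0.52 and 0.55). Ratios of BMP2 to the other FST probe sets were not computed, so the overlap speaks for this probe set only.

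The ratios of BMP6 to NOG, GREM1 and CHRDL1 differed less between the groups than those of BMP2. The ratio of BMP6 to GREM1 differed by 0.06 ± 0.08 with overlapping arrays (-0.00213 without untreated replicate 2, 0.12 without untreated replicate 1 and 0.14 with quantile normalization). This holds for GREM1 218468_s_at, whose own log2 difference was -0.97. The ratio to the dimmer 218469_at, at -1.06 with less spread within the groups, was not computed. A change of BMP6 relative to GREM1 is therefore neither shown nor excluded. The ratio of BMP6 to NOG was higher by 0.15 ± 0.04 (0.04 with a pseudocount of 64) and that of BMP6 to CHRDL1 lower, at -0.34 ± 0.10, each with the groups just apart. Relative to FST, BMP6 was lower by 3.03-fold (log2 -1.60 ± 0.06). The ligands lay on opposite sides: the ratio of BMP2 to BMP6 was higher with SHH by 1.78 ± 0.09, or 3.45-fold, at 1.82, 1.88 and 1.66 on the SHH arrays. These ratios restate differences for which the genes were chosen and carry no test.

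**Figure D3:**
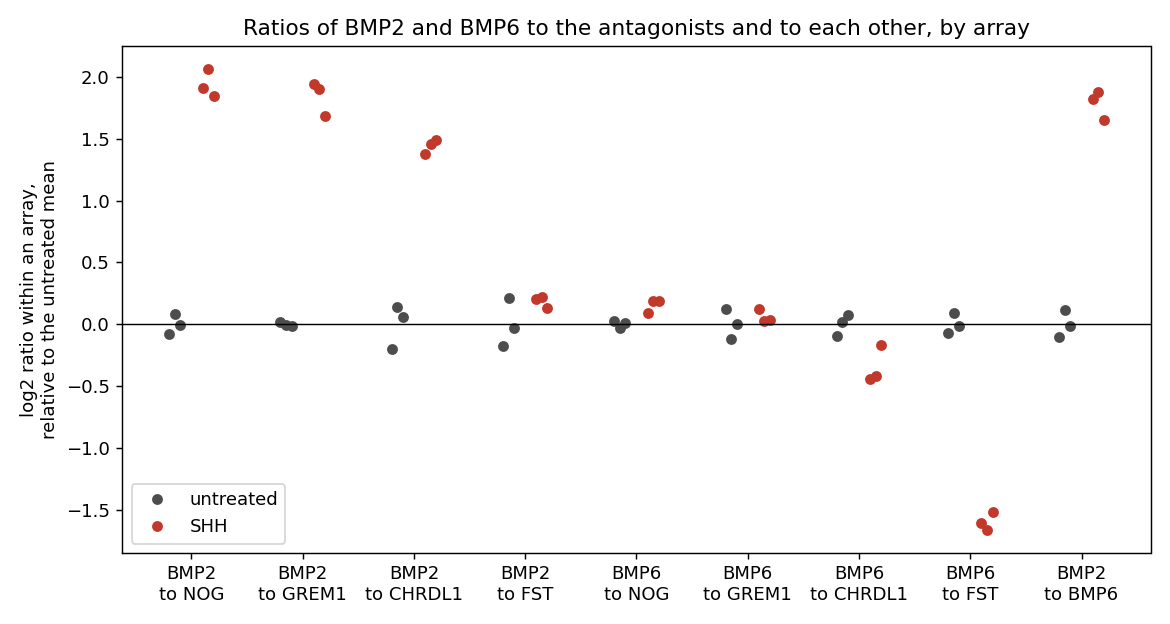
Log2 ratio of BMP2 and of BMP6 to each antagonist, and of BMP2 to BMP6, within each array and relative to the mean of the untreated arrays; each point is 1 of the 3 untreated or 3 SHH arrays. Ratios of BMP2 to NOG, GREM1, CHRDL1 and BMP6 are higher on all SHH arrays, the ratio of BMP6 to FST is lower, and the arrays overlap for BMP2 to FST and BMP6 to GREM1. Each gene is shown by its brightest named probe set only.

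The named genes most like each member were those with the smallest root mean square difference over the 6 arrays, after each gene's log2 values were centred on their own mean, among 1640 other named genes. The measure counts both the group difference and the scatter of single arrays. BMP2 was closest to LRRC17 (0.05) and PTGS1 (0.07), and FST to RFTN1 (0.03) and a gene listed as KIAA0746 (0.04). BMP6 was closest to DACT1 (0.05) and ATP8B4 (0.06), NOG to CXCL12 (0.06) and PALMD (0.06), and CHRDL1 to ATOH8 (0.04) and ECM2 (0.05). GREM1 was closest to another secreted BMP-binding protein, BMPER (0.05), and then to DACT1 (0.06). Among the 6 genes themselves, BMP6, NOG and GREM1 lay within 0.10 of one another, CHRDL1 stood 0.20 to 0.27 from these 3, and BMP2 and FST stood 0.15 apart.

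Of a list of 63 genes of the BMP pathway, 18 had a name here, 7 higher and 11 lower with SHH. By their brightest probe set 1 of the 18, NOG, passed limma's adjusted threshold, as lower, and 17 did not, where 0.123% of all probe sets passed. With the intensity trend 13 passed, against 1.86% of all probe sets. These were the 6 members, BMPER, NBL1, TWSG1, SMAD1, ID1, ID2 and ID4. A gene is named only where a probe set had a small p in these samples, so the other genes of the list are not described and the counts do not speak for the pathway. Of the 12 named genes besides the members, 5 were higher and 7 lower, none passed limma's adjusted threshold, and all 12 had an unadjusted p under 0.05. Such a p was found for 5310 of all 54613 probe sets and for 1866 of the 2145 named ones. Since the naming rests on a small p in the same arrays, nothing is read from the 12.

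Among secreted antagonists besides the members, BMPER, an extracellular regulator that binds BMPs, had signals of 748, 843 and 822 untreated and 375, 364 and 413 with SHH. Its log2 difference of -1.03 ± 0.11 resembled those of NOG and GREM1 in size and missed the threshold (limma adjusted p = 0.0609). NBL1, TWSG1 and SOST, which lie beyond the naming rule and were added after their values were seen, were higher. NBL1 (a member of the DAN family, as gremlin 1 is) lay at 0.56 ± 0.12 and TWSG1 (twisted gastrulation, a partner of chordin) at 0.44 ± 0.11, with both named probe sets of each gene higher (limma adjusted p = 0.228 and 0.271 by the brightest). The dimmer named probe set of TWSG1 lay at 0.91. SOST was below the array median on all 6 arrays, with signals of 1.62 to 5.33 untreated and 10.5 to 76.3 with SHH, and its difference of 1.18 ± 0.46 is that of a dim probe set (limma adjusted p = 0.497).

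GDF11, a further ligand of the wider family, had the only other named ligand probe set, at -0.85 ± 0.21 (limma adjusted p = 0.281); the authors' annotation marks that probe set as intronic. The activin genes that encode follistatin's main targets had no name. Of 12 receptors and co-receptors only the type II receptor BMPR2 was named, with all 3 of its probe sets lower (-0.60 to -0.38). Its brightest lay at -0.38 ± 0.12 (limma adjusted p = 0.392), and 1 of the 3 passed with the intensity trend. The transducer SMAD1 went from 3071 ± 77.9 to 2153 ± 77.9 (SD, n = 3), a log2 difference of -0.51 ± 0.10, without passing (limma adjusted p = 0.196). SMURF2, a ubiquitin ligase that acts on SMADs and receptors, lay at 0.34 ± 0.12 (limma adjusted p = 0.442), with 4 of 4 named probe sets higher.

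The ID genes, direct BMP targets, had differences of both signs. ID1 had a mean signal of 717 ± 63.9 untreated and 384 ± 29.2 with SHH and ID4 of 931 ± 104 and 517 ± 72.8 (SD, n = 3). ID3 lay at -0.28 ± 0.11 on the log2 scale and ID2 at 0.57 ± 0.13, with 0.91 on the dimmer named probe set of ID2. None of the 4 passed limma's adjusted threshold (adjusted p = 0.0952 for ID1, 0.174 for ID4, 0.498 for ID3 and 0.240 for ID2), while ID1, ID2 and ID4 passed with the intensity trend.

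**Figure D4:**
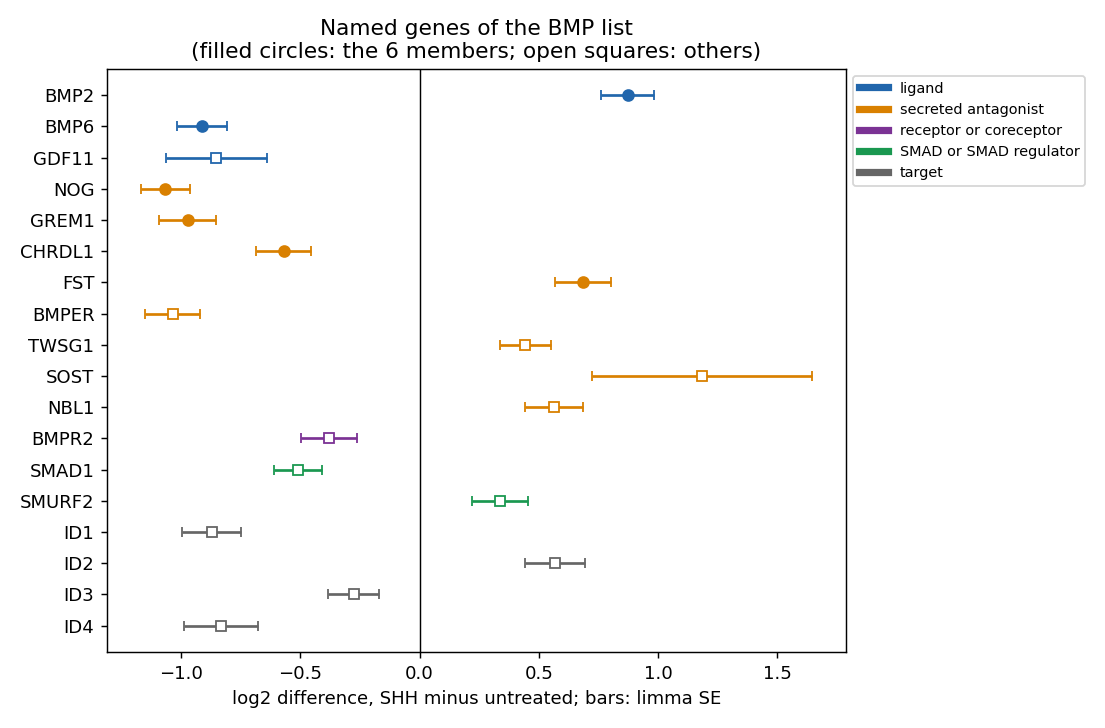
Log2 difference (SHH minus untreated) of the 18 named genes of the BMP list by their brightest named probe set, with limma's SE as bars and colours for the role; filled circles are the 6 members and open squares the other 12 genes. Secreted antagonists lie on both sides of 0, with NOG, GREM1, CHRDL1 and BMPER lower and FST, NBL1, TWSG1 and SOST higher. The SOST probe set was below the array median on all 6 arrays.

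The deposited intensities had the same 2% trimmed mean on all 6 arrays (498.1 to 498.2), a level that scaling before deposit appears to have set, so it does not show that the arrays were alike. The median log2 difference over all probe sets was -0.05, and centring the arrays on their medians left no member past the threshold. The treatment was visible in the hedgehog receptor gene PTCH1, a standard target of the pathway, which rose 6.25-fold (limma adjusted p = 0.0249), and GLI1 stood at 114 ± 55.8 untreated and 674 ± 89.9 with SHH (SD, n = 3), without passing (limma adjusted p = 0.110). Of 10 fibroblast markers 4 had a name (PDGFRB, FAP, COL3A1 and DCN), and each was lower with SHH, at log2 differences of -0.46, -0.47, -0.66 and -0.93. Of 6 markers of myofibroblasts and smooth muscle, CNN1 lay at -0.29 and MYH11 at 0.94. Markers of other cell types had few names: KRT18 of 8 epithelial markers (mean signal 5677 ± 349 untreated and 4241 ± 258 with SHH), CD14 of 5 leukocyte markers (161 ± 53.7 and 268 ± 16.01), UCHL1 of 5 glial and neuronal markers (3998 ± 154 and 6390.4 ± 195; SD, n = 3 throughout) and none of 5 endothelial markers. None of these marker probe sets passed limma's adjusted threshold. With the intensity trend, under which all 10 member probe sets passed, 5 of the 9 markers passed as well: UCHL1 and MYH11 as higher (limma adjusted p = 5.89e-04 and 0.00304) and KRT18, PDGFRB and FAP as lower (0.0202, 0.0301 and 0.0398). Their part in the values of the BMP genes was not tested.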

How the data were processed

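Total RNA of 6 cultures was turned into biotin-labelled cRNA and hybridised to Affymetrix arrays; this is per the labels' protocols. The deposited value table holds 1 linear intensity per probe set and array. How images were read, probes summarised and arrays scaled, and which array design was used, is not given in the sources used. The other deposited tables repeat these intensities without difference and add the authors' Cyber-T comparison, per the deposited readme, which the authors give per probe set as a q-value, a p-value, a t statistic (a score) and a log2 fold change. Its direction is untreated minus SHH and was turned here.

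A probe set was named where the symbols in the authors' deposited table of 2411 probe sets did not disagree, which gave 2145 probe sets of 1641 genes, with older symbols updated through RefSeq (GRCh38.p14). A further 54 had symbols that disagree, 116 had only a symbol marked as intronic or flanking, 10 had several and 86 none. The brightest named probe set stands for a gene, and others of that gene may be unnamed and differ.

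The 3 SHH arrays were compared with the 3 untreated ones in limma 3.58.1, R 4.3.3 (two-sided, Benjamini-Hochberg over 54613 probe sets, threshold 0.05) on log2(intensity + 16), without a filter, a scale that makes changes of dim probe sets look smaller. The fit was tested on simulated arrays. Summaries used Python 3.11.15 with pandas 2.3.3. The number of arrays limits the precision, and p-values measure only the spread between these samples. The text names all members, PTCH1 and GLI1, up to 4 genes per role of the pathway list by smallest p and the 2 genes most like each member. Members and lists were chosen with earlier results of these data known. Groups and replicate numbers came from the sample titles; no batch is recorded. Alternatives were the pseudocount (1 and 64), quantile normalization, median centring, leaving out dim probe sets, a replicate block, an intensity trend, a plain equal-variance test, leaving out each array and other probe sets of a gene.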

Additional observations from a re-analysis of the deposited data

How the results depend on the processing

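Every member probe set kept its direction under both other pseudocounts, both normalizations, the block and each left-out array. Other probe sets of a gene had the same direction. Because no groups overlapped, another pseudocount or a left-out array could not turn the sign. The block left each difference unchanged, as it must in a balanced design. Of these values 104 moved by less than the spread between replicates, the unchanged block values among them, and 10 moved by more. The counts of calls were less stable. The 67 probe sets past limma's threshold became 0 at a pseudocount of 1 (5009 had an unadjusted p under 0.05), 295 at 64, 34 with median centring, 558 without dim probe sets, 1014 with an intensity trend, 905 with its robust form, 147 by the plain test, and 0 without any 1 array (4411 to 5180 at an unadjusted p under 0.05). The 2 member probe sets past the threshold became 0, 6, 0, 10, 10, 9, 3 and 0 in that order, and 1 with quantile normalization; the 1 pathway gene became 0, 6, 0, 11, 13, 13, 2 and 0, and 0 with quantile normalization. In each of these fits all 10 member probe sets had an unadjusted p under 0.05. That was nearly fixed in advance, since they were named through the authors' p at or under 0.05 on the same arrays. Over all probe sets 4411 to 6512 had such a p in these fits, 4513 of 27306 without the dim ones. The 10 are therefore no sign of stability. With the replicate block all 3 counts were 0 (4746 of all probe sets and 10 member probe sets at an unadjusted p under 0.05). Same-numbered arrays did not deviate together (correlations of -0.0147 to 0.0193), so the numbers are not shown to pair the samples. The cause of these moves was not tested. The log2 ratio of BMP6 to GREM1, 0.06, ranged from -0.00213 (without untreated replicate 2) to 0.12 (without untreated replicate 1) when 1 array was left out and was 0.14 with quantile normalization. That of BMP2 to FST, 0.19, ranged from 0.0964 (without untreated replicate 1) to 0.29 (without untreated replicate 2). The ratio of BMP2 to NOG was 1.78 and that of BMP6 to NOG 0.04 with a pseudocount of 64. These 2 values moved by more than the spread between replicates, and the ratio of BMP6 to GREM1 turned sign without untreated replicate 2. The other 87 ratio values, those of BMP2 to FST among them, kept their sign and moved by less than that spread. Among the 87 are the values with the block, which repeat the main calculation and could not move. Depth could not be examined: the arrays carry no detection calls.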

Other observations

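A few further probe sets of the deposited table carry titles of the family and lie outside the pathway list; they were chosen after their values were seen. None of the 3 passed limma's adjusted threshold of 0.05. FSTL4, a follistatin-like gene, stood at 152 ± 42.6 untreated and 47.8 ± 24.5 with SHH (SD, n = 3; limma adjusted p = 0.277), above the median of its array on the 3 untreated arrays and below it on the 3 SHH arrays. BMP2K, a kinase named for its induction by BMP2, had a log2 difference of -0.51 ± 0.11 with SHH (limma's SE, n = 3 per group; limma adjusted p = 0.210), while signal of BMP2 itself was higher. TMEFF2, a membrane protein with follistatin-like domains, lay at 0.44 ± 0.15 (limma adjusted p = 0.447).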
